A study of Mus musculus with 12 samples.

Results

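The genes described here encode the machinery that builds ribosomes: 34 genes for RNA polymerase I subunits, small nucleolar ribonucleoproteins, assembly factors of both ribosomal subunits and abundant proteins of the nucleolus, together with the transcription factor gene Myc. They were chosen by name, for their function, out of 50600 gene identifiers in the count files. Every one of the 34 had enough reads to be tested among 16396 genes, with 765 to 46849 counts per gene and library. None of them passed the test for a difference among circadian times, for a 24 h wave, between subjective night and subjective day or between days. In the CT6 library of day 1, 31 of the 34 lay below their own mean, against 52.3% of all genes. In the CT2 library of day 1 their values spread apart more widely than elsewhere. Tested genes with at least the level of the lowest of the 34 also spread most widely there.

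The study followed gene expression in CD8+ T cells, the cytotoxic lymphocytes, around the clock. The cells came from lymph nodes of male C57BL/6J mice aged 8 weeks that were kept in constant darkness, and polyadenylated RNA was sequenced. All 12 libraries share this background and no library carries a treatment or mutation. They were collected at 6 circadian times (CT, hours of the internal clock, with CT0 the start of the subjective day and CT12 of the subjective night): CT2, CT6, CT10, CT14, CT18 and CT22, once on day 1 and once on day 2. CT14, CT18 and CT22 form the subjective night (n = 6) and CT2, CT6 and CT10 the subjective day (n = 6). The number of mice behind each sample is not given, and neither is whether samples came from separate animals, so p-values here reflect only how far the 12 samples scatter.

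The libraries held 24689964 to 33497078 counts on genes. All 6 CD8 T cell markers (Cd8a, Cd8b1, Cd3e, Cd3d, Cd3g and Trac) were expressed, and their summed level lay between 4306 and 5390 CPM (the count scaled to the library's size). Markers of other cells were present as well: 440.4 to 1569 CPM over 10 monocyte and macrophage genes, 102 to 178 CPM over 6 CD4 T cell genes and 297 to 536 CPM over 7 genes of dividing cells. No marker gene was at 0 in every library. The CT2 library of day 1 stood apart from the other 11: ribosomal protein genes took 13.3% of its counts, against 9.60% to 10.7% elsewhere, and its mean transcript length, weighted by abundance, was 1292 bases, against 1413 to 1454 bases. In bulk RNA of this kind, fewer cells of a type and less RNA per cell cannot be told apart.

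Ribosome production starts in the nucleolus, where RNA polymerase I transcribes the long precursor of the ribosomal RNAs. Small nucleolar ribonucleoproteins (snoRNPs) guide methylation and pseudouridylation of that precursor, and assembly factors cleave and fold it into the small and the large subunit. Resting T cells keep this machinery low and raise it after activation, with MYC as one of the factors that drive it.

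Levels between genes were compared in TPM, which corrects for transcript length. Npm1, which encodes the nucleolar chaperone nucleophosmin (chr11:33152287-33163206, minus strand, GRCm38), was the most abundant at 1195 ± 88.6 TPM (SD, n = 12). Ncl, which encodes nucleolin, followed at 502 ± 14.0 TPM. The box C/D snoRNP core genes came next: Nop56 at 287 ± 13.8 TPM, Nop58 at 212 ± 13.3 TPM and Fbl, the gene of the methyltransferase fibrillarin, at 199.8 ± 9.98 TPM. Myc had 92.0 ± 9.95 TPM and ranked 8 of 34. Utp15 (18.5 ± 1.25 TPM) and Rrp12 (16.0 ± 1.47 TPM), both assembly factors of the small subunit, closed the order. Of the 33 pairs of neighbours in this order, 4 had ranges over the 12 libraries that did not overlap. These were Npm1 over Ncl, Ncl over Nop56, Nop56 over Nop58 and Fbl over Ddx21, and the other 29 pairs overlapped. The levels of 3 genes depend on how reads were assigned: the RSEM estimate was 1.37 times the direct count for Fbl, 1.23 times for Nop56 and 0.69 times for Gnl3, against 0.83 to 1.01 times for the other 31. Their rank in this order is therefore uncertain.

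**Figure D1:**
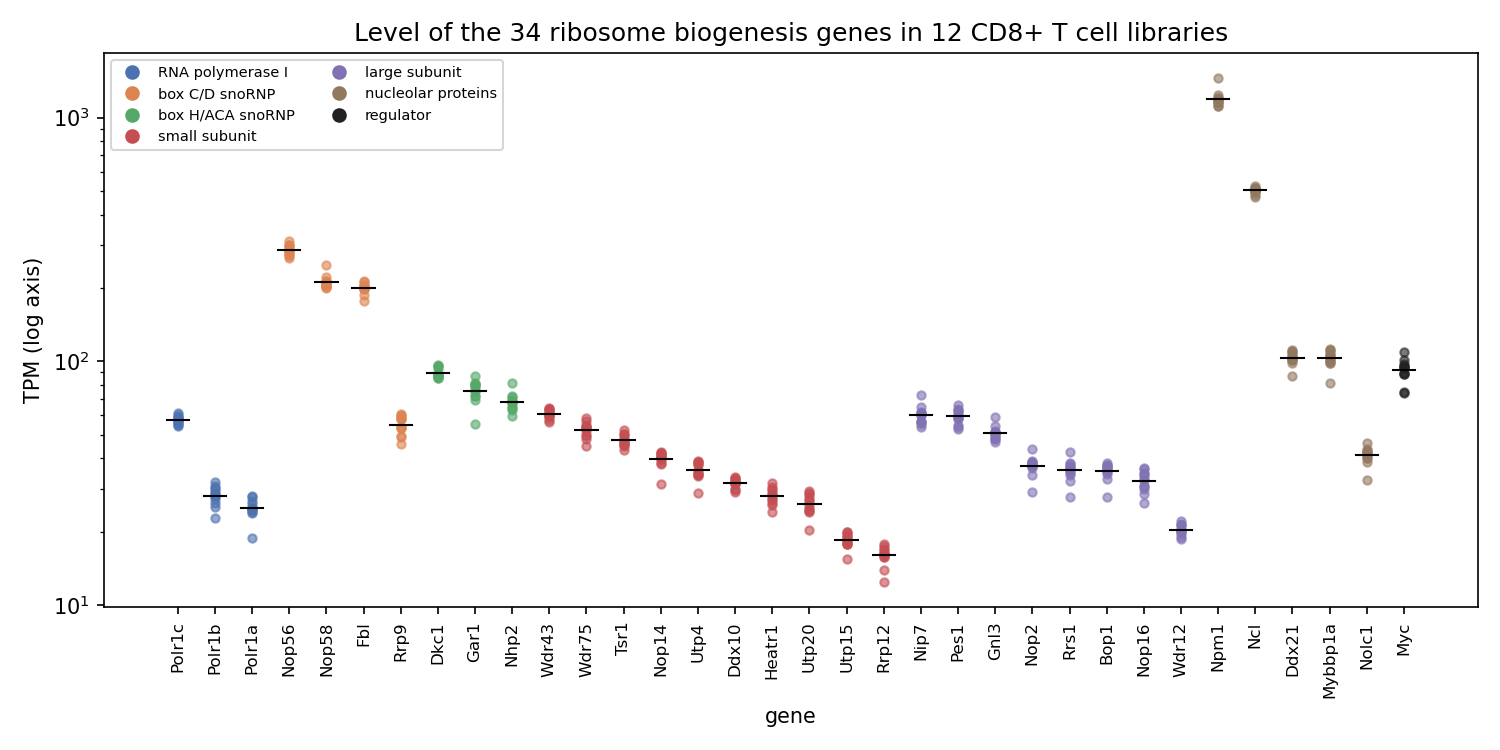
Level of each gene in TPM (log axis) in the 12 libraries, with 1 point per library and genes grouped by role. Npm1 and Ncl lie above all others, and most neighbouring genes overlap.

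Over the 12 libraries the 34 genes varied about as much as other genes of at least their level. The median coefficient of variation of the CPM values was 6.06% for the 34 genes, against 6.26% for the 5872 tested genes whose mean reached 32.1 CPM, the level of the lowest member. The ratio of the highest to the lowest library had a median of 1.23. Ddx21, a nucleolar RNA helicase gene, varied least, at 397 ± 13.1 CPM (SD, n = 12). Npm1 and Nhp2, a core gene of the box H/ACA snoRNPs, varied most, with coefficients of 13.9% and 13.8%. Both had their highest value in the CT2 library of day 1.

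Promoter sequence was looked at for the E-box CACGTG, the motif to which both MYC with its partner MAX and the clock factors CLOCK and BMAL1 are known to bind. RefSeq windows (GRCm38.p6) of 250 bases before to 50 bases after the transcription start were at hand for 28 of the 34 genes. The motif, a palindrome that reads the same on both strands, was found in 7 of these 28 windows (25%), against 8.09% of 27025 genes, 11.3% of 10733 tested genes and 18 of 98 other genes of ribosome biogenesis (18.4%). The variant CACGCG, searched on both strands, was in 10 of 28 (35.7%), against 19.2% of the tested genes and 33 of 98 other genes of the pathway (33.7%). The E-boxes are shown as the letters of a motif that such factors are known to bind. They are those of the 6 genes with the smallest p in the test among circadian times, with the motif in capitals:
Tsr1, chr11:74898092-74898121, plus strand: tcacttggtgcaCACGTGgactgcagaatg
Utp4, chr8:106893643-106893672, plus strand: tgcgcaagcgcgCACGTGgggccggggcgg
Nop2, chr6:125131811-125131840, plus strand: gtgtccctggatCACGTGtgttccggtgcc
Wdr43, chr17:71616220-71616249, plus strand: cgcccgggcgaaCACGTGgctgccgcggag
Pes1, chr11:3963965-3963994, plus strand: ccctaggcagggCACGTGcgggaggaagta
Utp20, chr10:88826765-88826789, minus strand: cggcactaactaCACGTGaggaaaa

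The seventh gene with the motif was Mybbp1a. In Nop2 the motif began 60 bases before the start, and in the other 6 genes it lay at or after the start. A match of letters is a description of these windows and was not tested against binding. The fitted 24 h peaks of the 7 genes were at 13.4 h for Utp4, 16.4 h for Nop2, 18.1 h for Mybbp1a, 20.1 h for Utp20, 23.1 h for Tsr1, 1.55 h for Wdr43 and 3.63 h for Pes1, and none of these waves passed its test.

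The first comparison asked whether a gene differed among the 6 circadian times. Of the 34 genes, 0 passed edgeR's quasi-likelihood test at a Benjamini-Hochberg adjusted p under 0.05, against 42 of all 16396 genes (0.256%). At an unadjusted p under 0.05 there were 3 (Heatr1, Tsr1 and Gnl3), against 12.7% of all genes, and DESeq2 and limma also called 0. The smallest adjusted p was 0.294, for Tsr1, a factor of late small subunit assembly. The range between the highest and the lowest time was 0.09 (Fbl) to 0.36 (Nhp2) on the log2 scale. Its median was 0.18 over the 34 genes and 0.34 over all genes tested. Of the 16396 genes, 5872 reached the level of the lowest member, and their own median range was not taken. Without the CT2 library of day 2, so that CT2 rested on its day 1 library alone, 8 of the 34 passed, against 10.2% of all genes. These 8 were Nop58, Nop56, Nip7, Npm1, Nhp2, Tsr1, Gnl3 and Dkc1. With no filter on low counts, 3 passed (Nop58, Npm1 and Nhp2), against 7.17% of 29911 genes.

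For 7 of the 34 genes, both libraries of 1 time lay beyond the other 10 in CPM, above or below. The same held for 26.9% of all genes, so that such genes were no more frequent among the 34. At CT2, Wdr43 and Ddx10, of the small subunit, were above (3.69% of all genes were). Nop56 was below at CT6 (1.89% of all genes), with 196 CPM on day 2 and 187 CPM on day 1. Utp4, of the small subunit, was above at CT10 (2.9%), with 74.6 CPM on day 2 and 77.6 CPM on day 1. At CT14, Utp15 was above (4.72%) and Pes1 below (5.07%). Ddx21 was above at CT18 (0.75%), with 412 CPM on day 2 and 419.6 CPM on day 1, where the other 10 libraries spanned 376 to 406 CPM. No circadian time held more than 2 of these genes. In TPM the pattern held for none of them. Ddx21, for example, had 109.5 TPM on day 2 and 110.6 TPM on day 1 at CT18, against 111.8 TPM at CT22 of day 2. Ddx10 had 29.6 TPM at CT2 of day 1, against 33.6 TPM at CT18 of day 2.

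A wave of 24 h was then fitted to each gene, and its amplitude was taken as the log2 distance from mean to peak. No gene passed here either: 0 of 34, and 0 of 16396 genes overall (0%), in the quasi-likelihood test of edgeR after Benjamini-Hochberg adjustment. Before adjustment, 3 genes had p under 0.05 (Heatr1, Utp20 and Nop2), against 13.3% of all genes, while limma called 0 and DESeq2 called 1, Heatr1 (adjusted p = 0.0265), against 0.746% of all genes. Without both CT2 libraries Heatr1 passed in edgeR too (amplitude 0.11, adjusted p = 0.0394), against 2.65% of all genes. Amplitudes ran from 0.03 (Nop14) to 0.14 ± 0.06 (Npm1, ± SE). Their median was 0.06, the same as the 0.06 of tested genes with at least the level of the lowest member and below the 0.10 of all tested genes. The largest amplitude plus 2 SE was 0.26, again Npm1, which is a 1.43-fold difference between trough and peak. The fitted peaks fell in the subjective night for 26 genes and in the subjective day for 8, against 48.7% of all tested genes in the night. The SE of a fitted peak ran from 0.91 h (Heatr1) to 6.27 h (Myc).

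**Figure D2:**
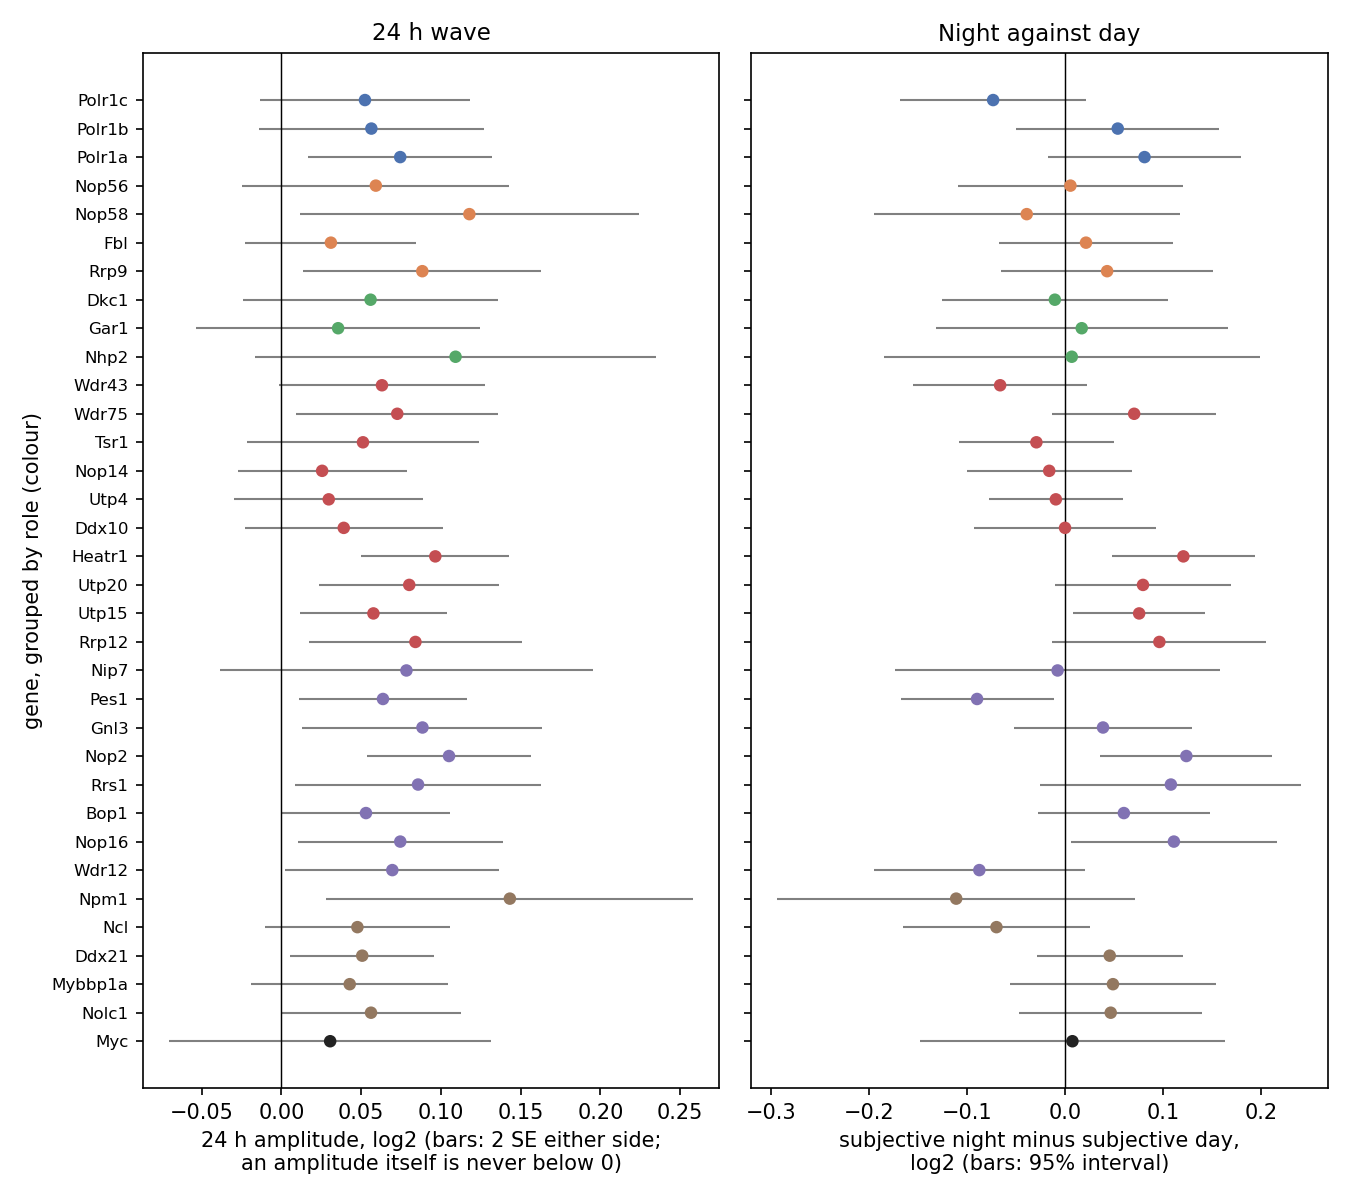
Left, 24 h amplitude of each gene (log2, bars 2 SE either side). Right, difference of subjective night minus subjective day (log2, bars 95% interval), with genes coloured by role. Amplitudes stay at or under 0.14, and the night differences lie between -0.11 and 0.12.

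Subjective night was next set against subjective day. In the same edgeR test, adjusted as above, 0 of the 34 genes passed, against 269 of all genes (1.64%). An unadjusted p under 0.05 was reached by 5, against 18.5% of all genes. Of these, 4 were higher in the night (Heatr1, Utp15, Nop2 and Nop16), against 9.05% of all genes, and 1 was lower (Pes1), against 9.42%. DESeq2 and limma called 0. The difference was positive for 22 genes and negative for 12, against 48.3% positive over all tested genes and 56 positive of 111 other genes of the pathway. The median was 0.02 on the log2 scale, against -0.01 for all tested genes. With each library left out in turn, 17 (without CT22 of day 1) to 23 of the 34 were positive. The share over all genes was then 47.4% to 50.4%. In log2(TPM + 1), 29 of the 34 were positive, as were 63.3% of all genes, with Polr1c, Nop58, Dkc1, Utp4, Nop14, Tsr1 and Nip7 on the other side of 0 from their sign in CPM. All 34 95% intervals lay between -0.29 and 0.24.

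Heatr1 (chr13:12395027-12440289, plus strand) encodes a small subunit factor that, in human cells, is also needed for RNA polymerase I transcription. Its level in the night ranged from 163 over a median of 171 to 180.0 CPM, and in the day from 149 over 157 to 165 CPM. The ranges overlapped between 163 and 165 CPM. The means were 171 ± 5.63 CPM in the night and 157 ± 6.35 CPM in the day (SD, n = 6 each), a log2 difference of 0.12 ± 0.03 (SE) with a 95% interval of 0.05 to 0.19. The adjusted p of edgeR's test was 0.0945, and the fitted peak stood at 18.6 h with an amplitude of 0.10 ± 0.02. Without both CT2 libraries the difference was 0.15 with an adjusted p of 0.0173, against 7.61% of all genes called. It also passed without the day 2 library of CT2 (0.12, adjusted p = 0.0478) and without the day 1 library of CT2 (0.13, adjusted p = 0.026), where 7.01% and 10.4% of all genes passed.

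Nop2 (chr6:125131909-125144753, plus strand) encodes a methyltransferase of the large subunit RNA. It had 79.4, 81.2 and 88.6 CPM in the night (lowest, median and highest library) and 69.6, 76.8 and 79.3 CPM in the day. In CPM it was the 1 gene of 34 whose night libraries all lay above the day libraries, as did 0.817% of all genes. The gap between the groups was small. In TPM it did not separate, with 37.99 TPM both at CT18 of day 2 and at CT10 of day 2. Heatr1, which overlapped in CPM, had at least 28.30 TPM in the night and at most 28.05 TPM in the day. The share of all genes without overlap was not taken in TPM. The log2 difference was 0.12 ± 0.04 (SE) with an interval of 0.04 to 0.21 and an adjusted p of 0.137 in edgeR's test.

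Pes1, Bop1 and Wdr12 encode the 3 subunits of the PeBoW complex, which acts in large subunit assembly. Pes1 averaged 104 ± 3.71 CPM in the night and 110.5 ± 4.25 CPM in the day (SD, n = 6 each), a difference of -0.09 ± 0.04 on the log2 scale (adjusted p = 0.212, edgeR). Wdr12 averaged 41.9 ± 0.95 CPM in the night and 44.5 ± 3.41 CPM in the day, a difference of -0.09 ± 0.05. Bop1 had the opposite sign, with 75.7 to 79.4 CPM in the night and 69.5 to 79.5 CPM in the day. The genes of this 1 complex thus did not share a direction, and none of these differences passed the test.

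**Figure D3:**
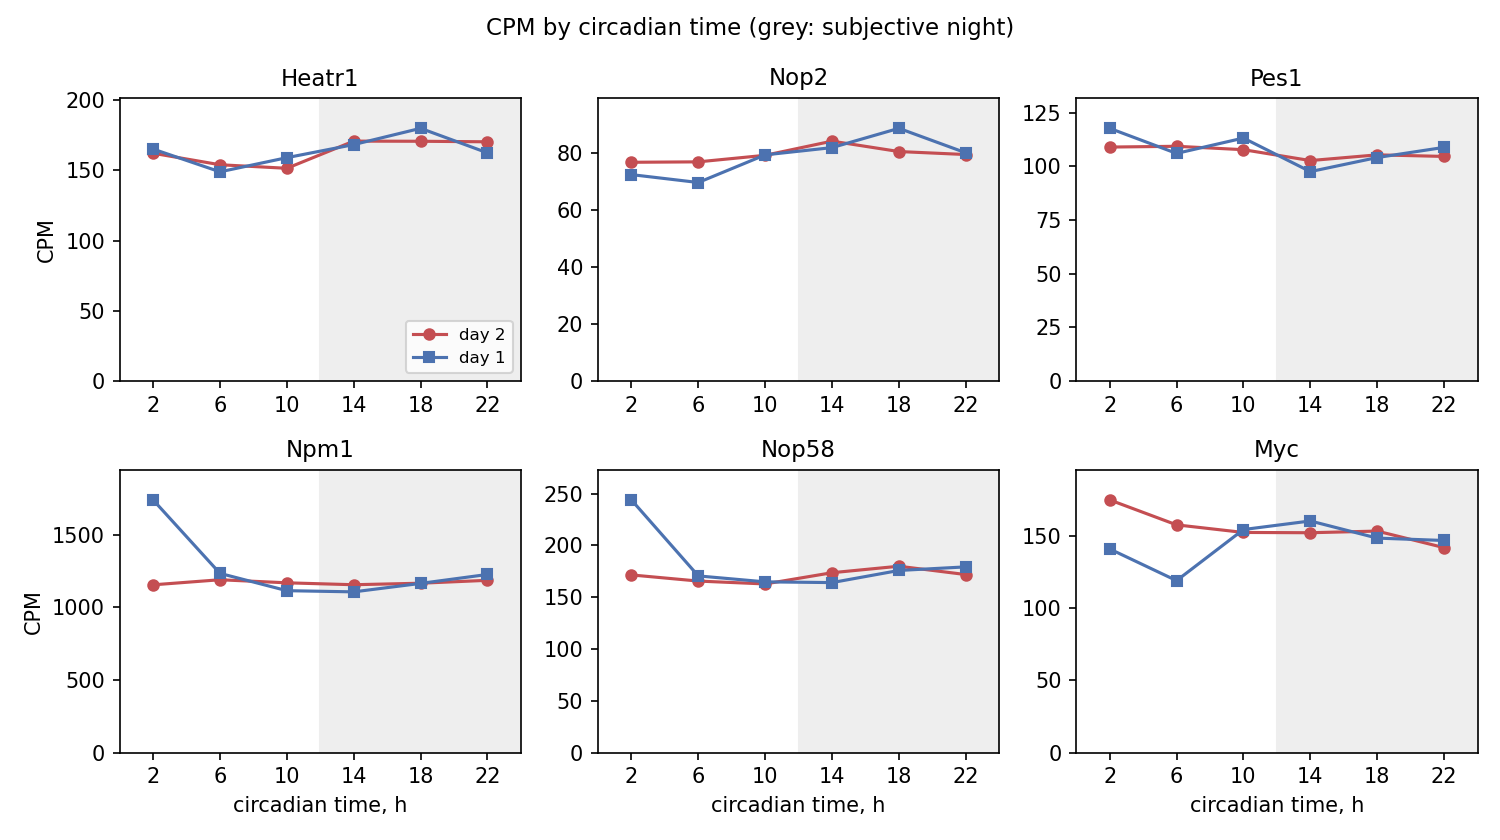
CPM of 6 genes by circadian time (h), with a line for each day and the subjective night in grey. Heatr1 and Nop2 lie slightly higher in the night, whereas Npm1 and Nop58 are set apart by the CT2 library of day 1 alone.

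By role, in CPM, positive night differences were seen in 2 of 3 RNA polymerase I genes, 3 of 4 box C/D genes, 2 of 3 box H/ACA genes, 6 of 10 small subunit genes, 5 of 8 large subunit genes and 3 of 5 genes of nucleolar proteins. The RNA polymerase I genes were Polr1a and Polr1b, which encode the catalytic core, at 0.08 and 0.05, and Polr1c, a subunit shared with RNA polymerase III, at -0.07. In the box C/D group, Rrp9, of the U3 snoRNP, had 0.04, Fbl 0.02, Nop56 0.01 and Nop58 -0.04. In the box H/ACA group, Gar1 had 0.02, Nhp2 0.01 and Dkc1, the gene of the pseudouridine synthase dyskerin, -0.01. None of these passed the test, and every interval included 0. Among the small subunit genes, Rrp12 had 0.10, Utp20 0.08, Utp15 0.08 and Wdr75 0.07, whereas Wdr43 had -0.07. Tsr1 had -0.03, Nop14 -0.02 and Utp4 -0.01, and Ddx10 lay nearest to 0. In the large subunit, Nop16 and Rrs1 had 0.11 each, Gnl3, the gene of nucleostemin, 0.04, and Nip7 -0.01. Among nucleolar proteins, Nolc1, Ddx21 and Mybbp1a, a MYB-binding protein gene, had 0.05 each, whereas Ncl had -0.07 and Npm1 -0.11. Marker genes moved between the groups as well: the monocyte and macrophage sum was 1090.0 ± 303 CPM in the night and 737 ± 264 CPM in the day, and the 7 stroma and endothelium genes summed to 139 to 159 CPM in the night and 164 to 190.2 CPM in the day. Their part in the differences was not tested. The dividing cell sum was 395 ± 22.3 CPM in the night and 396 ± 94.6 CPM in the day.

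Myc (chr15:61985391-61990374, plus strand) encodes a transcription factor known to induce many genes of ribosome production. At CT2 it had 174.7 CPM on day 2 and 140.8 CPM on day 1, and at CT6 157.4 CPM on day 2 and 118.9 CPM on day 1. From CT10 to CT22 all 8 libraries lay between 142 and 160.1 CPM. The highest and the lowest library were thus both in the subjective day, 1 on each day. Its amplitude was 0.03 ± 0.05 (SE), the night difference 0.01 ± 0.07 and the day 2 minus day 1 difference 0.10 ± 0.07, with an interval of -0.05 to 0.25.

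In the CT2 library of day 1, 15 of the 34 genes had their highest value of the 12 libraries, as did 19.1% of all genes, and 4 had their lowest (Polr1a, Polr1b, Gar1 and Utp20), as did 18.2%. These counts hold for CPM. In TPM, 4 genes were highest there (Npm1, Nop58, Nhp2 and Nip7), as were 6.3% of all genes, and 22 were lowest, as were 42%. Ncl, Pes1 and Wdr12 were thus highest in CPM and lowest in TPM in the same library. Npm1 had 1740.3 CPM there, against 1107 to 1234 CPM in the other 11 libraries. Nop58 had 244 CPM, against 163 to 179.9 CPM. Nhp2 had 74.3 CPM, against 46.4 to 55.6 CPM, and Nip7, a large subunit factor gene, 75.9 CPM, against 49.7 to 57.1 CPM. For each of these 4 genes the CT2 library of day 2 lay within the range of the others. The median over the 34 genes was still 0.02 above their own means (log2 CPM), because others were low. The interquartile range of these deviations was 0.29 over the 34 genes, against 0.05 to 0.11 in the other 11 libraries. Over tested genes with at least the level of the lowest member it was 0.24, against 0.07 to 0.15.

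High and low genes in that library differed in transcript length. Of 13 genes with transcripts under 2000 bases, 12 were above their own mean, with Gar1 the exception, and the median deviation was 0.21. Gar1 had both the shortest transcripts of the 34 genes (664 bases) and the lowest deviation in that library (-0.22). Of 15 genes of 2000 to 4000 bases, 6 were above, and of 6 longer genes, 1 was above. Over all tested genes the shares above their mean in these classes were 64.5%, 42.4% and 28.6%. Across the 34 genes, which share the library and its depth, the correlation of deviation with log length was -0.44 (Spearman -0.43), and across 16396 genes it was -0.25. In the other 11 libraries it lay between -0.17 and 0.47 over the 34 genes. The library's shorter mean transcript length and its higher share of ribosomal protein counts, given above, moved with these values, and their part was not tested.

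**Figure D4:**
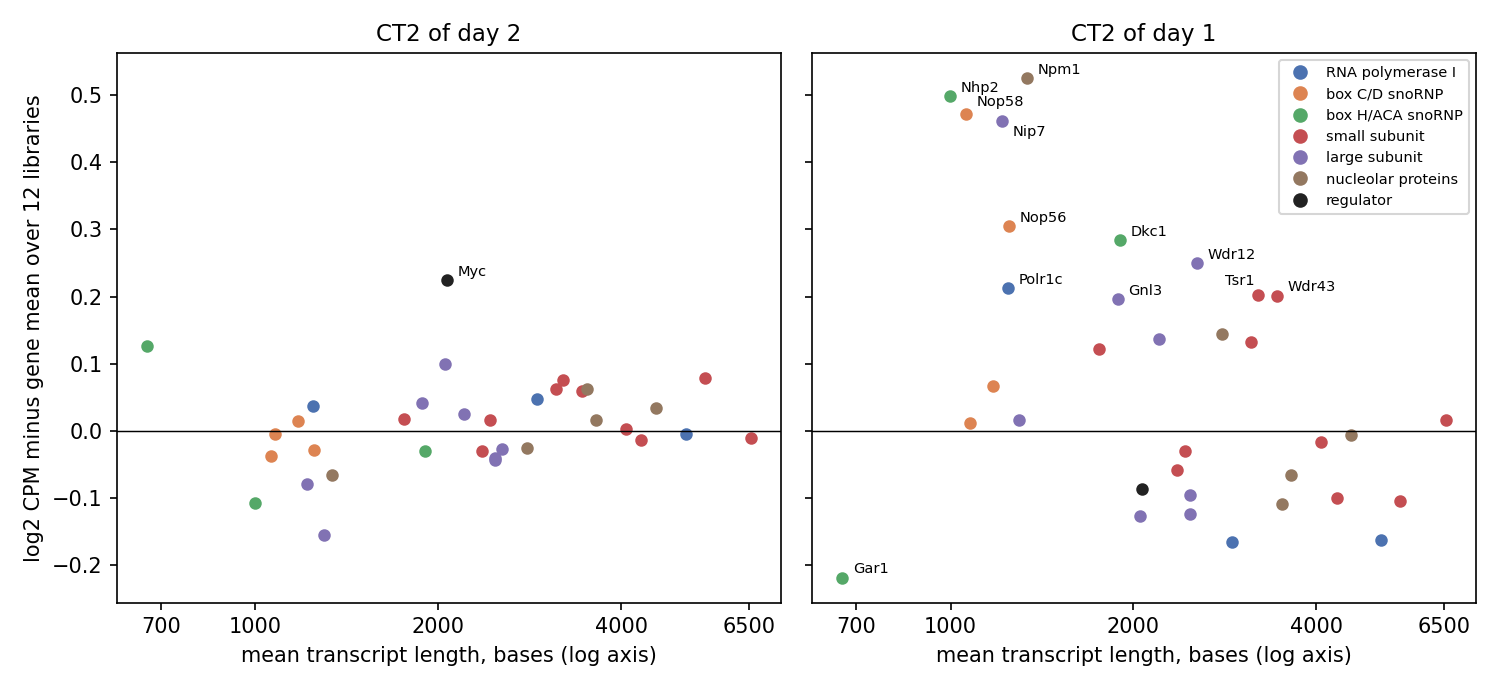
Deviation from the gene's mean over 12 libraries (log2 CPM) against mean transcript length (bases, log axis) at CT2 of day 2, left, and CT2 of day 1, right. On day 1 the short genes Npm1, Nhp2, Nop58 and Nip7 stand highest, and on day 2 the correlation was 0.20.

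In CPM, the CT6 library of day 1 showed the most uniform shift. There 31 of 34 genes were below their own mean, with a median deviation of -0.12 on the log2 scale, against 52.3% of all genes below and a median of -0.01. It was the lowest of the 12 libraries in CPM for 15 genes, as it was for 10.7% of all genes, and in TPM for 0 genes, against 3.18% of all genes. Of 111 other genes of ribosome biogenesis, 100 were below their mean as well (90.1%). With other scalings or units, 29 to 31 of the 34 genes stayed below, with medians between -0.07 and -0.11. In log2(TPM + 1) it was not the most uniform shift: 29 were below there, and 30 were above at CT18 of day 1. The median at CT18 of day 1 was then 0.10, against 0.04 for all genes, of which 34.4% were below their mean. At CT6 of day 2, 18 genes were below and the median was -0.0015, so the shift was seen on 1 of the 2 days. The same day 1 library had the lowest sum of CD8 T cell markers (4306 CPM) and the highest sums of dividing cell (536 CPM), CD4 T cell (178 CPM), dendritic cell (688 CPM) and stroma markers (190.2 CPM). Their part in the shift was not tested.

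**Figure D5:**
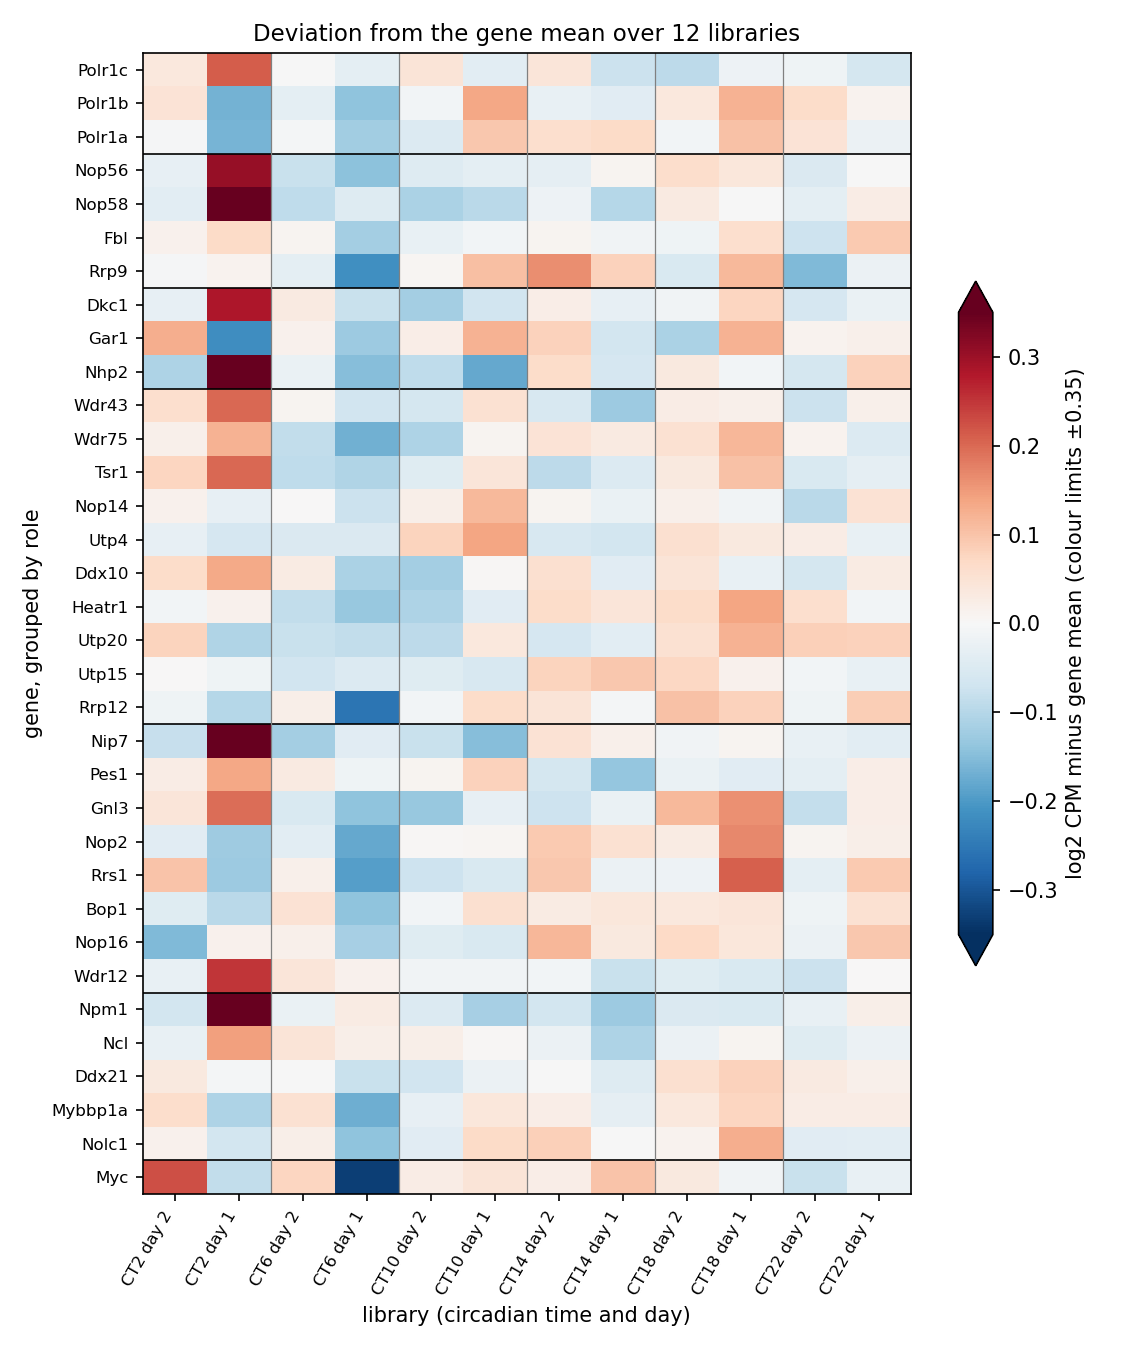
Deviation of each gene from its own mean over the 12 libraries (log2 CPM) by library. The CT6 library of day 1 lies low for 31 of 34 genes. The CT2 library of day 1 spreads most widely, as it does over tested genes with at least the level of the lowest member.

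In the CT18 library of day 1, 25 genes were above their mean, as were 51.7% of all genes. The median deviation was 0.05 on the log2 scale, against 0.0042 for all genes. In CPM, 8 had their highest value of 12 there, as did 4.53% of all genes. On day 2 at CT18, 22 were above, as were 51.1% of all genes, with medians of 0.03 and 0.0024. Heatr1 had 171 CPM on day 2 and 180.0 CPM on day 1 at this time, and Nop2 had 80.5 CPM on day 2 and 88.6 CPM on day 1.

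Day 2 was compared with day 1 over all times. Of the 34 genes, 0 passed edgeR's quasi-likelihood test after adjustment, as did 0 of all genes (0%), and 0 reached an unadjusted p under 0.05, against 1.82% of all genes. DESeq2 and limma also called 0. Differences ran from -0.10 (Npm1, 0.0061 without both CT2 libraries) to 0.10 (Myc), and all intervals lay between -0.27 and 0.25. Time by time, the number of genes higher on day 2 was 15 at CT2, 29 at CT6, 7 at CT10, 26 at CT14, 14 at CT18 and 11 at CT22, against 48.2% to 52.7% of all genes at each time, so the direction was not the same at all times. A difference of the wave between the days was likewise called for 0 of 34 genes and 0 of all genes (0%), with 0 at an unadjusted p under 0.05 against 4.44% of all genes, and DESeq2 and limma called 0.

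Other genes of the pathway were taken from a list. Of 111 tested genes of RNA polymerase I, snoRNPs and subunit assembly outside the 34, 0 differed among times and 0 had a wave in edgeR's test, and 1 was higher in the night and 0 lower. Over all 16396 genes these counts were 42, 0, 106 and 163. At an unadjusted p under 0.05 there were 7 of the 111 for times and 12 for the wave, against 12.7% and 13.3% of all genes. The gene that passed was Noc3l, a large subunit factor, with a night difference of 0.17 on the log2 scale and an adjusted p of 0.0437. Its levels lay between 44.8 CPM at CT6 of day 2 and 55.3 CPM at CT18 of day 1. Median amplitudes were 0.05 for the 111 genes and 0.06 for the 34. Among 9 genes of the MYC network and 7 known MYC-induced genes, 0 passed any of these tests. Among times, 3 and 2 of them reached an unadjusted p under 0.05, against 12.7% of all genes. Max, the partner of MYC, had a night difference of 0.13 (adjusted p = 0.106), and Mxd4, a gene of a competing partner of MAX, 0.05 (adjusted p = 0.619). Odc1, a known MYC target, lay between 77.3 CPM at CT10 of day 1 and 117 CPM at CT2 of day 1, and Nme1, another, between 27.0 CPM at CT10 of day 1 and 43.7 CPM at CT2 of day 1. Among times, the adjusted p in edgeR's test was 0.247 for Taf1b and 0.488 for Ubtf, both of RNA polymerase I initiation. It was 0.444 for Ruvbl2 and 0.492 for Snu13, of snoRNP assembly and core. It was 0.287 for Riok1 and 0.376 for Emg1, of the small subunit, and 0.253 for Rbm28, of the large subunit. The genes named here were picked for a small p among times. In CPM, CT6 of day 1 was the lowest of 12 libraries for Ubtf, Ruvbl2, Riok1, Emg1, Rbm28 and Max, as for 10.7% of all genes. CT2 of day 1 was the highest for Taf1b, Snu13, Riok1, Emg1, Odc1 and Nme1, as for 19.1% of all genes.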

How the data were processed

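RNA of CD8+ T cells was measured in 12 libraries, 1 per circadian time and day. Per the submitters' processing notes, bcl2fastq 2.19, Trimmomatic 0.35, STAR 2.5.1b and RSEM 1.2.28 were used. Counts per gene (the column 4 counts) are the authors' deposited raw values and are not normalized. RSEM's expected counts and TPM values are the authors' deposited estimates. Entries that name no gene held 29.3% to 31.2% of a library and were left out.

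From the counts, edgeR 4.0.16 (R 4.3.3) with TMM scaling gave CPM and quasi-likelihood tests, with Benjamini-Hochberg adjustment over all 16396 genes that passed filterByExpr. DESeq2 1.42.0 and limma 3.58.1 on log2(TPM + 1) were alternatives, with other scalings, pseudocounts, filters, RSEM expected counts rounded to whole numbers, and libraries left out. Deviations use log2 CPM with a prior count of 2. The replicate number is the day of collection, per the labels, and so could pair the samples. As the labels state no paired design, the main tests among times, for the wave and for the night had no day term. A fit with day as a block was an alternative. For each time the difference of day 2 minus day 1 in log2 CPM was taken over 10153 genes. Between times these differences correlated at -0.60 to 0.35 (median 0.08), above 0.1 in 6 of 15 pairs of times. Symbols were found for 50376 of 50600 identifiers (GENCODE M21). Each of the 34 genes is named, and of other lists the genes with the smallest p among times and any that passed. Members, lists and tests were chosen with earlier results of these data known.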

Additional observations from a re-analysis of the deposited data

Results flagged for a closer look

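Each of the 34 genes was checked within the 6 libraries of each day for a library far from the others by Dixon's test. Of 68 such groups, 9 were marked, and 7 of these were the CT2 library of day 1. Chance marks about 1 in 20 groups. Over all tested genes, 11.8% were marked on day 1, 6.40% at CT2 of that day, and 5.98% on day 2, against 7 and 2 of the 34 genes. On day 1 at CT2, Npm1 had 1740.3 CPM (the other 5 libraries of the day 1107 to 1234), Nop58 244 (164 to 179), Nop56 255 (187 to 212), Nhp2 74.3 (46.4 to 55.6), Nip7 75.9 (49.7 to 55.8), Polr1c 65.5 (53.6 to 55.8) and Wdr12 51.3 (40.9 to 43.6). On day 2, Nop56 had 216 CPM at CT18, against 196 to 203 in the others, and Nop14 had 77.8 CPM at CT22, against 83.3 to 84.3 in the others.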

How the results depend on the processing

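Alternatives were run gene by gene for all 34 genes in the tests of times, wave and night, and for Npm1 and Myc between the days. None of the 34 passed as reported, so no call could be lost, and the range among times and the amplitude have no sign to change. Across genes and alternatives, a test was newly passed 11 times among times, 2 for the wave and 6 for the night. The night difference changed sign 68 times, in 14 genes, none of them past the threshold. For the test among times, 0 of the 34 genes passed as reported, 3 without a filter on counts, and 0 to 8 when each library was left out in turn, 8 without CT2 of day 2. For the 24 h wave, 1 passed with DESeq2 and 1 without both CT2 libraries (Heatr1 both times), and 0 when each library was left out. For night against day, 1 passed without both CT2 libraries (Heatr1), and 0 to 4 when each library was left out, where 4 without CT2 of day 2 were Heatr1 (higher) and Nop58, Wdr12 and Npm1 (lower). For the days and the wave by day, 0 passed under every alternative run. With the replicate block (day of collection), 0 of the 34 genes passed among times, for the wave, for the night and between the days, and over all genes 20, 0, 92 and 0 passed in these tests. The wave by day has day in its fit and was not run with the block. The night difference turned in log2(TPM + 1) for Polr1c (0.00055, 0.00056 with a pseudocount of 0.1), Nop58 (0.0094 in both), Dkc1 (0.0060 in both), Utp4 (0.055 and 0.057), Nop14 (0.046 and 0.047), Tsr1 (0.0019 in both) and Nip7 (0.080 and 0.081), with the same values without a filter. It turned with upper quartile factors for Nop56 (-0.0010) and Ddx10 (-0.0062), and with RSEM counts for Nhp2 (-0.0020) and Utp4 (0.00042). Without both CT2 libraries it turned for Nop58 (0.071), Dkc1 (0.056), Tsr1 (0.035) and Nip7 (0.098), and the day difference of Npm1 turned (0.0061). Without both CT14 libraries it turned for Rrp9 (-0.0039), Utp4 (0.021), Ddx10 (-0.00094), Tsr1 (0.00090) and Myc (-0.017). Leaving out each library in turn gave -0.0062 to 0.048 for Fbl, -0.045 to 0.066 for Nop56, -0.11 to 0.054 for Nop58, -0.058 to 0.046 for Dkc1, -0.036 to 0.079 for Gar1, -0.082 to 0.12 for Nhp2, -0.018 to 0.00089 for Utp4, -0.041 to 0.0080 for Nop14, -0.022 to 0.025 for Ddx10, -0.088 to 0.092 for Nip7 and -0.055 to 0.081 for Myc. The median deviation at CT2 of day 1 was 0.02 as reported, 0.025 with upper quartile factors, -0.0054 with RSEM counts and -0.22 with log2(TPM + 1), where all genes shifted by -0.20. At CT18 of day 1 it was 0.05 as reported and 0.10 with log2(TPM + 1), where all genes shifted by 0.04. These scaling alternatives were added after the data were seen. The cause of these changes was not tested. With 2 libraries per time, the spread between libraries limits what these tests can call.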
